A study of Mus musculus with 8 samples.

Results

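Bone marrow-derived macrophages (BMDM) are the tumor macrophages that arise from blood monocytes, as opposed to microglia, the macrophages native to the brain. The series holds 8 libraries, 3 of microglia and 5 of BMDM, and the 5 BMDM libraries, named BMDM 1 to BMDM 5 by their label numbers, are described here by the level of each protein-coding gene. The cells came from tumors of GL261, a mouse glioma line, that had been implanted in the brains of mice labelled with the genotype WT. Sorted BMDM were positive for F4/80, CD11b and CD45, low or negative for Ly6C, negative for Ly6G and high for CD49d. The labels give no strain, age, sex or tumor stage and do not say whether each library came from its own mouse or from a pool, so the SD over the 5 libraries may be partly technical. The series title places the study in the field of glucose use and histone lactylation in immunosuppressive tumor macrophages.

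Monocytes leave the blood through the CCL2 receptor CCR2 and integrins such as CD49d, and in tissue they become macrophages under CSF1 receptor signaling. Macrophages engulf dead cells, break their proteins and lipids down in lysosomes, store the iron, and present peptides on MHC class I and class II. Within tumors they also secrete cytokines and chemokines, and they can restrain T cells through arginine breakdown, interleukin 10 and checkpoint ligands.

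RNA was measured with QuantSeq 3′ FWD, a kit that reads the 3′ end of polyadenylated transcripts. The kit is made to give about 1 tag per transcript molecule, so CPM, a count scaled to a common library total, was not divided by length. Length still mattered between libraries. Across the 6071 genes at 20 CPM or more, each library was compared with the mean of the other 4 as a log2 difference. The Spearman correlation of this difference with transcript length ran from -0.33 in BMDM 2 to 0.31 in BMDM 5, with 0.06 in BMDM 4. Comparisons of level between short and long genes therefore depend on the library. With the percentage of G and C bases in the transcript the correlation was -0.10, -0.04, 0.24, 0.18 and -0.17 in BMDM 1 to 5. CPM was computed over all counts of a library after 3 genes were taken out: mt-Rnr1 and mt-Rnr2, which encode mitochondrial rRNA, and Gm42418, which lies over a ribosomal RNA repeat. Where 5 values stand in a row, they run from BMDM 1 to BMDM 5. The spread of a gene is the SD of log2(CPM + 1) over the 5 libraries. A gene with a mean of at least 20 CPM is called stable at a spread of 0.25 or less and variable at a spread of 1 or more. No group is compared with another, so these are descriptions without a test.

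Of 21951 protein-coding genes in the table, 16749 had a count in at least 1 BMDM library and 9326 in all 5. The mean reached 20 CPM for 6071 genes, 100 CPM for 1735 and 1000 CPM for 109. Library totals ran from 5890406 to 9169531 counts and from 4151079 to 6008538 without Gm42418 and the mitochondrial rRNA. Protein-coding genes held 92.8% to 95.2% of the remaining counts. A count of 0 allows up to 0.499 to 0.723 CPM, taking 3 counts as the limit, and counting error moved no class share of a library by more than 0.0306 percentage points (half-width of the 95% Wilson interval). Reads without molecular identifiers are not independent molecules, so these limits cover counting error only.

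Libraries BMDM 4 and BMDM 5 stood apart from BMDM 1, 2 and 3. Gm42418 took 41.2% and 48.9% of their counts, against 14.8% to 19.8%. Protein-coding genes with a count numbered 10802 and 11353, against 14005 to 14609. Across the 6071 genes at 20 CPM or more, Pearson's r of log2 levels was 0.884 to 0.928 among BMDM 1, 2 and 3. It was 0.696 to 0.800 between BMDM 4 and those libraries, 0.598 to 0.619 between BMDM 5 and those libraries, and 0.662 between BMDM 4 and BMDM 5. Genes are not independent replicates, and these coefficients describe the libraries only. Levels are therefore given library by library for the genes and classes that matter most, and counts of stable and variable genes also over BMDM 1, 2 and 3 alone.

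All 6 genes that mark monocyte-derived macrophages were measured above 20 CPM on average. Ccr2, the receptor for CCL2, was at 142, 142, 208, 289.6 and 186 CPM, present in every library. Itga4, which encodes the sorted CD49d, was at 101, 75.7, 116, 145 and 155 CPM. Lyz2 encodes lysozyme, a bactericidal enzyme of myeloid cells, and was at 3857, 1976, 3052, 2363 and 352 CPM, with BMDM 5 far below the other libraries. Il1b, the precursor of the inflammatory cytokine interleukin 1 beta, was at 1781, 1519, 4570.2, 2261 and 1867 CPM. The receptor gene Clec4e, whose product senses dead cells and fungi, was at 161 ± 60.5 CPM (SD, n = 5), and F10, which encodes coagulation factor X, was at 87.4 ± 36.4 CPM. Among the genes of the sort, Itgam (CD11b) reached 486 ± 479 CPM, Adgre1 (F4/80) 126 ± 36.2 and Ptprc (CD45) 455 ± 139. Ly6g, a neutrophil gene, stayed between 0 and 0.22 CPM. Ly6c2, which encodes a Ly6C protein, was at 410.1, 131, 569, 582 and 97.6 CPM, although the gate took cells low or negative for Ly6C. The genes Ly6c1 and Ly6c2 are near-identical, and the treatment of multimapping reads is not stated in the sources used here.

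Genes of other cell types were present at low levels, and in bulk RNA few contaminating cells and little RNA per cell cannot be told apart. Summed over lists, T cell genes gave 34.7 to 171 CPM, NK cell genes 8.39 to 325, B and plasma cell genes 5.75 to 19.6, neutrophil genes 100.5 to 203 and platelet genes 0 to 23.2. Gzma, a granule protease of cytotoxic lymphocytes, supplied 204 CPM of the NK cell sum of BMDM 1. Hemoglobin and other erythroid genes summed to 43.0 to 83.4 CPM in BMDM 1 to 4 and 258 CPM in BMDM 5. Mzb1 of plasma cells and Gp1ba of platelets were at 0 in all 5 libraries. Brain lists gave 86.5 to 127 CPM for astrocytes, 185 to 252 for the oligodendrocyte lineage, 36.1 to 139 for neurons and 98.0 to 133 for endothelial cells. Mast cell and basophil genes summed to 33.9 to 79.5 CPM and pericyte and fibroblast genes to 28.1 to 43.7 CPM. The dendritic cell list reached 670.2 to 2448 CPM, mostly from Bst2 (1279 ± 634 CPM), an interferon-stimulated gene of many cells. Of its 11 genes, 4 had a mean of at least 20 CPM. Fscn1 and Ccr7, genes of mature dendritic cells, averaged 98.6 ± 30.2 and 31.5 ± 27.3 CPM and were highest in BMDM 1, at 141 and 67.8 CPM, while Flt3 and Xcr1 averaged 6.96 ± 3.604 and 7.57 ± 10.6 CPM. The glioma list reached 614 to 815 CPM, mostly from Vim (603 ± 104 CPM), which macrophages also express. Of its 9 genes, 3 had a mean of at least 20 CPM. Olig2 and Sox2, transcription factors of glial and glioma cells, were at 22.98, 38.9, 11.2, 0.24 and 59.8 CPM and at 16.4, 38.7, 12.98, 9.395 and 49.5 CPM, both highest in BMDM 5.

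Microglial genes were unequal. Cx3cr1, the fractalkine receptor that monocyte-derived macrophages also carry, was at 907, 953, 1380.4, 785 and 928 CPM, whereas Sall1, a transcription factor specific to microglia in the brain, had a mean of 7.31 ± 3.47 CPM and P2ry12, a microglial purinergic receptor, 13.3 ± 11.7 CPM. The 12 microglial genes listed summed to 1277 to 2867 CPM. Of them, 7 had a mean of at least 20 CPM, Tmem119 (165 ± 108 CPM) among them. Border-associated macrophage genes summed to 253 to 1540 CPM, carried by Pf4, Mrc1 and F13a1, with Lyve1 between 0 and 1.15 CPM and Cd163 between 0 and 15.5 CPM. The part that such cells played in any level below was not tested.

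The RNA of these macrophages was concentrated in few genes. The 10 most abundant genes of a library held 9.01% to 11.7% of its protein-coding counts, the top 100 held 25.8% to 32.7% and the top 1000 held 62.0% to 66.3%. Between 342 and 527 genes were needed to reach 50% of the counts, the largest number in BMDM 5. Of the 19 genes that entered the top 10 of any library, Actb and Apoe were in the top 10 of all 5. The top 100 of the 5 libraries drew on 191 genes, of which 35 were shared by all.

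Actb, which encodes cytoplasmic beta actin (chromosome 5, 142903115 to 142906754, minus strand, GRCm38), had the highest mean, with 11789, 10003, 12127, 19351 and 13569 CPM, a rank of 1 to 4 in each library and a mean of 13368 ± 3578 CPM (SD, n = 5). Tmsb4x encodes thymosin beta 4, a small protein that holds actin monomers (chromosome X, 167207093 to 167209315, minus strand), and reached 23493, 24062, 12764, 3283 and 1882 CPM. It ranked first in BMDM 1 and 2, 3rd in BMDM 3, 18th in BMDM 4 and 36th in BMDM 5. Apoe, the apolipoprotein that loads cholesterol for export (chromosome 7, 19696109 to 19699188, minus strand), was at 11828, 10971, 14961, 11713 and 5216 CPM, first in BMDM 3 and 8th in BMDM 5. The SDs of these 3 genes exceeded the gaps between their means, so their order holds for the means only. The top 30 also held Fau (2102 ± 879 CPM), which encodes a ribosomal protein fused to a ubiquitin-like domain, and Cd52 (1842 ± 621 CPM), a small surface glycoprotein of leukocytes. Actin cytoskeleton genes as a class held 5.17, 5.06, 4.21, 4.03 and 3.24% of protein-coding counts.

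**Figure D1:**
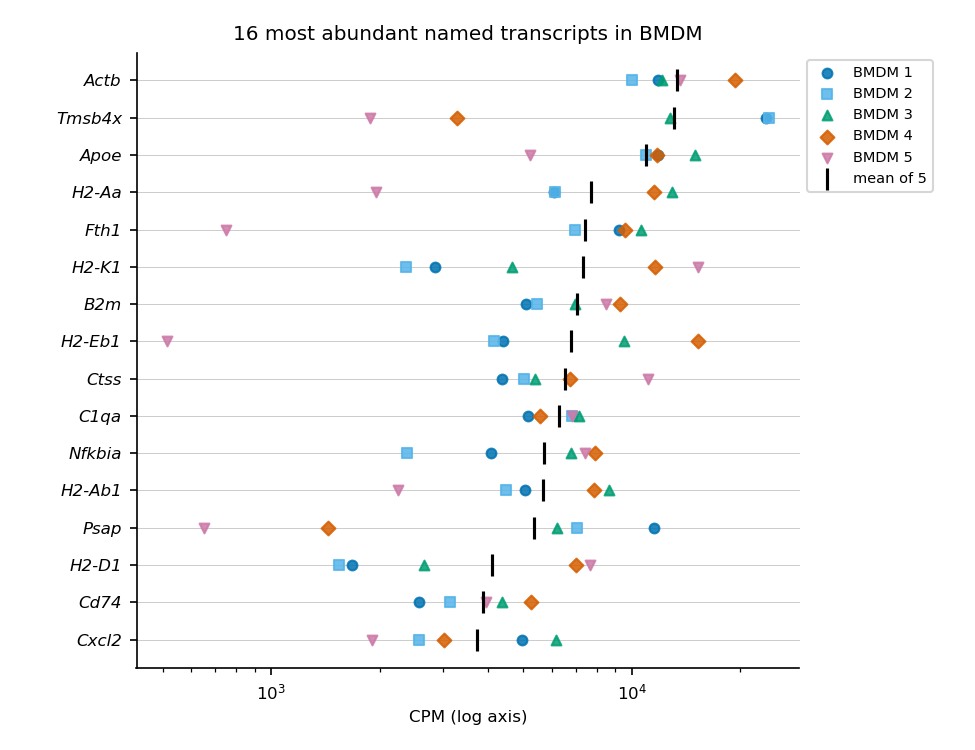
CPM (log axis) of the 16 protein-coding genes with the highest mean, ribosomal protein genes, mitochondrial genes and unnamed gene models left out, with a point per BMDM library and a black bar for the mean of the 5. Actb and C1qa lie close together across libraries, whereas Tmsb4x, Fth1, H2-Eb1 and Psap lie far lower in BMDM 5 than in BMDM 1, 2 and 3.

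Of the 30 named genes with the highest means, 7 belonged to the MHC class I and class II lists. On the class II side, H2-Aa, which encodes the alpha chain of I-A, was at 6064, 6109, 12959.7, 11516 and 1952 CPM. The beta chain gene H2-Ab1 was at 5049, 4482, 8664, 7869 and 2239.8 CPM, and Cd74, whose product escorts class II molecules through the cell, was at 2577, 3141, 4363, 5255 and 3937 CPM. H2-Eb1, the beta chain gene of I-E, was at 4406, 4144, 9524, 15292 and 513 CPM, a 29.8-fold range. All 3 chain genes were lowest in BMDM 5, and H2-Aa and H2-Ab1 were highest in BMDM 3. The class II list of 11 genes held 2.03, 2.01, 3.87, 4.38 and 1.01% of protein-coding counts, or 2.66% ± 1.41 (SD, n = 5). H2-DMb1, part of the exchange factor that loads peptides, was its steadiest member at 679.6 ± 154 CPM with a spread of 0.35.

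Class I genes followed another order of libraries. H2-K1, a class I heavy chain gene, was at 2837, 2369, 4656, 11603 and 15231 CPM, ranking 43rd in BMDM 2 and first in BMDM 5. H2-D1, the other classical heavy chain in the top 30, was at 1675, 1545, 2649, 6998 and 7637 CPM. B2m, which encodes their shared light chain beta-2 microglobulin, was at 5081, 5450.4, 6969.8, 9268 and 8494 CPM and varied 1.82-fold between its lowest and highest library, against 6.43-fold for H2-K1. Both heavy chain genes and B2m were higher in each of BMDM 4 and 5 than in any of BMDM 1, 2 and 3. The class I list of 22 genes held 1.4999, 1.43, 2.11, 3.68 and 3.796%. Calr, a chaperone of class I loading, was steady at 1026, 1067, 933, 1179 and 1114 CPM, a spread of 0.13. Heavy chain genes of the H2 complex are near-identical in part, so reads could have been split or shared among them.

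The bases upstream of 3 of these genes are shown because MHC promoters carry a Y box, the binding motif of the factor NF-Y. By mean level H2-Aa ranked 4th, B2m 7th and H2-Eb1 8th. H2-K1, ranked 6th, is not shown, so rank alone did not select them. Each run is 150 bases that end just before the RefSeq transcript start (GRCm38.p6), 5′ to 3′ on the strand of the gene, with the core ATTGG, on either strand, in capitals. H2-Aa covers chr17:34287824-34287973 (minus strand), H2-Eb1 chr17:34305717-34305866 (plus strand) and B2m chr2:122147537-122147686 (plus strand).
H2-Aa: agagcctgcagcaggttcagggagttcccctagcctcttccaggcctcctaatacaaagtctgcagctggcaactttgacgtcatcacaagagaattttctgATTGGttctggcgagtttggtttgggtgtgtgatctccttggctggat
H2-Eb1: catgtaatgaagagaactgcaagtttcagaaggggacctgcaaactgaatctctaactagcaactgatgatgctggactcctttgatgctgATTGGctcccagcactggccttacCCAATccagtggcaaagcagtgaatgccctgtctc
B2m: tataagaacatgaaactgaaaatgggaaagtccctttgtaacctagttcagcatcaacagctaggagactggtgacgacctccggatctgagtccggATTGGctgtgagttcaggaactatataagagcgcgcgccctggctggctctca
The core began 48 bases before the start in H2-Aa and 53 in B2m. In H2-Eb1 it occurred on both strands, 59 and 35 bases before. It was found in 7 of 8 class II list genes with a RefSeq promoter, 11 of 18 class I list genes and 25.04% of all 27025 promoters. A match of these letters is a description and no evidence of binding, and the genes and motif were chosen after their levels were known.

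Complement and lysosomal genes were also in the top 30. C1qa encodes the A chain of C1q, the recognition unit of classical complement, and was at 5151, 6811, 7144, 5560.2 and 6803 CPM, a spread of 0.21. Its partner chains C1qc and C1qb reached 3294 ± 1081 and 1769 ± 506 CPM. Complement components and receptors together held 1.15, 1.44, 1.65, 1.198 and 1.31%. Ctss encodes cathepsin S, the protease that trims the class II chaperone, and was at 4368, 5012, 5389.5, 6749.8 and 11066 CPM, highest in BMDM 5. Cathepsins and cystatins held 1.39, 1.499, 1.56, 1.597 and 1.98%. Other members were lower, with Ctsb, a general lysosomal protease, at 1808 ± 385 CPM and Cst3, the secreted inhibitor cystatin C, at 1727 ± 728. Psap, the precursor of the saposins that help degrade sphingolipids, was at 11511, 7048, 6183, 1439.6 and 652 CPM, a 17.7-fold range. Grn, the progranulin gene, covered a 1.78-fold range at 2136, 2052, 3055, 2520.3 and 3654 CPM. Laptm5, a lysosomal membrane protein of blood cells, was at 2176 ± 851 CPM. Lysosomal hydrolases and membrane proteins held 2.17% ± 0.452 of protein-coding counts, and 4 of their 31 members at 20 CPM were variable, beside 17.4% of all genes at 20 CPM.

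The lipid and iron lists held larger shares in BMDM 1 to 4 than in BMDM 5. The lipid list held 1.99, 1.99, 2.23, 1.84 and 1.296%, led by Apoe (10938 ± 3547 CPM), while its median member averaged 127 CPM. Npc2, which moves cholesterol out of lysosomes, followed at 2018 ± 706 CPM and Lgals3, a lectin of lipid-laden macrophages, at 1426 ± 451. Fabp5, a fatty acid carrier, had the largest spread in that list, with 1004, 1477, 168, 34.2 and 70.9 CPM, and Abcg1, a cholesterol exporter, the smallest at 57.6 ± 6.17 CPM. Fth1, the heavy chain of the iron store ferritin, was at 9216, 6976, 10585, 9556 and 748 CPM. The light chain gene Ftl1 was at 636, 643, 905, 364 and 100.3 CPM, also lowest in BMDM 5, whereas Hmox1, which frees iron from heme, was highest there at 913 CPM against 236 to 438 CPM in the others. Together the iron list held 1.24, 0.983, 1.38, 1.16 and 0.307%, led by Fth1, while its median member averaged 50.5 CPM.

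Inducible genes formed a class of their own. Immediate early and dissociation response genes, which can be switched on within minutes of a stimulus or of tissue digestion, held 3.09, 2.56, 3.88, 4.92 and 4.73%, and 14 of 42 reached a mean of 1000 CPM. Nfkbia encodes the inhibitor that ends NF-kB signaling and was at 4069.9, 2381, 6796, 7928 and 7433 CPM. Junb and Fos, subunits of the factor AP-1, were at 2929 ± 893 and 1859 ± 785 CPM, and the chaperone gene Hsp90ab1 was at 1978, 2116, 1838, 2438 and 4117 CPM, highest in BMDM 5. Mcl1, a survival factor, was the steadiest of the class at 1569.7, 1354, 1629.8, 1241 and 1425 CPM. Dusp5, a phosphatase that switches off ERK, was the least steady, at 129, 104, 258, 3319 and 2976 CPM. The labels do not describe the dissociation, and its part in these levels was not tested.

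Chemokine and cytokine genes held 1.01% ± 0.274 and 0.575% ± 0.197 of protein-coding counts. Cxcl2, a chemokine that draws neutrophils, led with 4954, 2569, 6149.6, 3023 and 1907 CPM. Ccl6 (858 ± 769 CPM) and Ccl4 (825 ± 474 CPM) followed and differed in direction, with Ccl6 highest in BMDM 2 and Ccl4 in BMDM 4. Cxcl9, an interferon gamma-induced chemokine that attracts T cells, was at 604, 397, 893, 1268 and 271 CPM. Among cytokines Il1b was far above the next genes, Il1rn (607 ± 395 CPM), its natural antagonist, and Nampt (407 ± 279 CPM), which makes a precursor of NAD. Il1b was 4570.2 CPM in BMDM 3 and at most 2261 CPM in the other 4 libraries. Among chemokine receptors, which held 0.264% ± 0.0484, Cx3cr1 and Ccrl2 (478 ± 239 CPM) had higher means than Ccr2.

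Nfkbia and Cxcl2 are textbook NF-kB targets, and the bases upstream of both are shown because they are the most abundant genes of their classes. Capitals mark GGGANTTTCC, a kappa B motif in which N is any base, on either strand. The 150 bases are chr12:55492648-55492797 (minus strand) for Nfkbia and chr5:90903749-90903898 (plus strand) for Cxcl2.
Nfkbia: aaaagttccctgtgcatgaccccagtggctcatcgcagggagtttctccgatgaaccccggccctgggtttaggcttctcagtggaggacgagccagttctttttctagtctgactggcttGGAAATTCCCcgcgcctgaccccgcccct
Cxcl2: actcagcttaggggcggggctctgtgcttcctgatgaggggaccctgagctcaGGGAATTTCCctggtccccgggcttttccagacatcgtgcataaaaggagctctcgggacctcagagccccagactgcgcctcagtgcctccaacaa
The match began 29 bases before the start of Nfkbia, on the opposite strand, and 97 before that of Cxcl2. This strict spelling occurred in 0.222% of all promoters, 3 of 16 chemokine promoters and 1 of 32 promoters of the immediate early list. Both genes were chosen after their values were seen.

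Interferon-stimulated genes held 1.199, 0.976, 1.699, 1.63 and 0.8297%, highest in BMDM 3 and 4. Ifitm3, which blocks virus entry, led with 1474, 1180.4, 2906, 2383 and 274 CPM, followed by Bst2, a tether of budding virus, at 1279 ± 634 CPM and Cxcl9. Isg15, a ubiquitin-like modifier, was at 868, 915, 956, 429 and 188 CPM, and Rsad2, the antiviral enzyme viperin, at 281, 213, 317, 619.6 and 694 CPM. The pair ordered the libraries differently, since Isg15 was lowest in BMDM 4 and 5 and Rsad2 highest there. Both were chosen after their values were seen, to show the interferon-stimulated response element, written here as GAAANNGAAA and marked in capitals on either strand, in chr4:156200819-156200968 (minus strand) (Isg15) and chr12:26456453-26456602 (minus strand) (Rsad2).
Isg15: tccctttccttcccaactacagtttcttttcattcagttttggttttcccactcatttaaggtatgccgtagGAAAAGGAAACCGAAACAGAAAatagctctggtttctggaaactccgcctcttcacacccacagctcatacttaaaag
Rsad2: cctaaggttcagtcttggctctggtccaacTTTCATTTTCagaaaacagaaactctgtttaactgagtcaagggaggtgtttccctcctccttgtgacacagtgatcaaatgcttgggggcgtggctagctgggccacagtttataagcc
Isg15 held 3 overlapping matches and Rsad2 held 1, on the opposite strand. The letters occurred in 18 of 47 promoters of the interferon list and in 1.60% of all promoters.

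Transcription factors of macrophages held 1.76% ± 0.376. Maf, a factor of macrophage differentiation, was at 2876, 1968, 1677, 1737 and 565 CPM, lowest in BMDM 5. Spi1, the myeloid master factor PU.1, was at 408 ± 191 CPM, and Csf1r, the receptor for CSF1 that it controls, was at 1473, 1358, 2136, 2139.7 and 354 CPM. All 8 pan-macrophage genes listed were at 20 CPM or more, and their sum ran from 3375 to 5685 CPM. Klf3 was the steadiest factor in the list at 205 ± 38.4 CPM, and Cebpd the least steady, at 53.4, 60.4, 76.4, 31.3 and 0.88 CPM.

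Fc receptor genes and their adaptors held 0.541% ± 0.114. Fcer1g and Tyrobp encode small adaptors that carry signals of many surface receptors. Tyrobp was at 1662, 1556, 1642, 1396 and 56.5 CPM, close together in BMDM 1 to 4 and 29.4-fold lower in BMDM 5 than in BMDM 1. Fcgr4, an IgG receptor, ran the other way, at 154, 222, 256, 683 and 1584 CPM. Its highest libraries were BMDM 5 and 4. Pattern recognition and inflammasome genes held 0.336% ± 0.0766 and were led by Cd14, the LPS coreceptor (551 ± 273 CPM), Nlrp3, the inflammasome sensor (395 ± 165 CPM), and Tlr2 (296 ± 229.9 CPM). Scavenger and apoptotic cell receptor genes held 0.252% ± 0.0274, the highest being Lrp1 (389 ± 133 CPM), Msr1 (352 ± 107 CPM) and Axl (330.1 ± 189.8 CPM).

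Genes of immunosuppression and alternative activation held 0.638, 0.771, 0.884, 0.7104 and 0.9202%. Tgfbi, a secreted matrix protein induced by TGF-beta, was at 1214, 1165, 1714, 1223 and 1262 CPM. Socs3, a brake on cytokine receptors, had a mean of 914 ± 508 CPM. Arg1, which breaks arginine down, was at 617, 1053, 222, 171 and 1807 CPM, highest in BMDM 5 and 2. Il10, an immunosuppressive cytokine, was at 42.8, 41.99, 146, 70.3 and 247 CPM, and Cd274, the checkpoint ligand PD-L1, at 57.5, 53.9, 90.5, 266 and 184 CPM. These 2 genes lay outside the rule for named genes and were chosen after their values were seen. Of the 24 list members at 20 CPM, 8 were variable over the 5 libraries, beside 17.4% of all genes, and 7 had a spread of at least 1 over BMDM 1, 2 and 3 alone, beside 2.51% of all genes.

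Glycolysis and hypoxia genes held small and steady shares. Glycolysis and lactate export took 0.349, 0.322, 0.387, 0.377 and 0.313%, a 1.24-fold range. Its leading members were Hk2 (848, 719, 903, 396 and 369.9 CPM), the inducible hexokinase, Pkm (620.1 ± 290.3 CPM), pyruvate kinase, and Aldoa (399 ± 111 CPM), aldolase. Slc2a1, the glucose transporter GLUT1, was the steadiest, at 106, 111, 116, 98.5 and 129.8 CPM. Ldha, which makes lactate, was at 255, 311, 217, 133 and 178 CPM, and Slc16a3, the lactate exporter MCT4, at 78.2, 92.4, 109, 271 and 412 CPM, both outside the rule for named genes and added after their values were seen. Gapdh was counted at 95.99, 52.3, 67.1, 74.9 and 0.66 CPM. It has many near-identical processed pseudogenes, so its true level is uncertain. The hypoxia list took 0.237, 0.275, 0.249, 0.205 and 0.253%, led by Hilpda, a lipid droplet protein (546 ± 261 CPM), and by Vegfa, the vascular growth factor, at 115, 65.6, 268, 423 and 432 CPM. Both lists stayed under 0.4% of protein-coding counts in each library.

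Enzymes that add or remove acyl groups on histone lysines held 0.094, 0.079, 0.081, 0.1401 and 0.144%, the smallest class of the 32. Crebbp and Ep300, related acetyltransferases, were at 205, 142, 159, 209.8 and 280.4 CPM and 71.9, 49.9, 85.4, 162 and 180.2 CPM. Kat6a was at 84.05, 49.9, 77.1, 304 and 275 CPM, and the deacetylase gene Sirt1, with the largest spread of the list, at 35.4, 42.6, 20.8, 176 and 114 CPM. Kat7 was steadiest, at 58.3 ± 9.01 CPM. Crebbp, Ep300, Kat6a and Sirt1 were each higher in BMDM 4 and 5 than in BMDM 1, 2 and 3. For Crebbp the gap was small, at 209.8 CPM in BMDM 4 and 205 CPM in BMDM 1. Kat7 did not share this order, at 51.2 CPM in BMDM 5 and 67.4 in BMDM 1. The annotated transcripts of the first 4 are long (10820, 9566, 9113 and 4430 nt). Among all genes of 4500 nt or more, the median log2 difference from the other libraries was 0.08 in BMDM 4 and 0.55 in BMDM 5. The part of length in these levels was not tested.

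Machinery that every cell uses also differed between libraries. Cytosolic ribosomal protein genes were the largest class, at 10.9, 13.8, 8.11, 5.29 and 4.098%, and 35 of 76 at 20 CPM were variable over 5 libraries, beside 17.4% of all genes, and 1 over BMDM 1, 2 and 3, beside 2.51%. Rps21 and Rpl37 led, at 6279, 6960.3, 5840.4, 2172 and 1246 CPM and at 6446, 7186, 4494, 2171 and 393 CPM, while Rpl8 was the steadiest at 736, 869.99, 712, 653 and 997 CPM. Nuclear genes of oxidative phosphorylation held 2.45, 2.86, 2.01, 1.34 and 0.781%, with 27 of 72 variable over 5 libraries and 0 over BMDM 1, 2 and 3, beside the same 17.4% and 2.51%. The counts over BMDM 1, 2 and 3 are near the share of all genes and set neither class apart. The median transcripts of the 2 classes (886.5 and 863 nt) are short. Among all 326 genes of at least 600 but under 1000 nt, 35.9% were variable over the 5 libraries. The part of length in the counts over 5 libraries was not tested. Mitochondrially encoded mRNAs held 1.12, 1.99, 1.51, 0.922 and 0.386%, led by mt-Cytb (2681 ± 1433 CPM) and mt-Nd1 (2637 ± 1467 CPM), which encode respiratory chain subunits. Translation factors and the proteasome differed less, holding 0.967% ± 0.107 and 0.965% ± 0.138, and Eef2, the factor that moves the ribosome along, was at 878, 875, 854, 695 and 876 CPM. The mitochondrial gene mt-Atp6 was listed at 256 CPM in BMDM 2 and at 0 in the other 4 libraries.

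**Figure D2:**
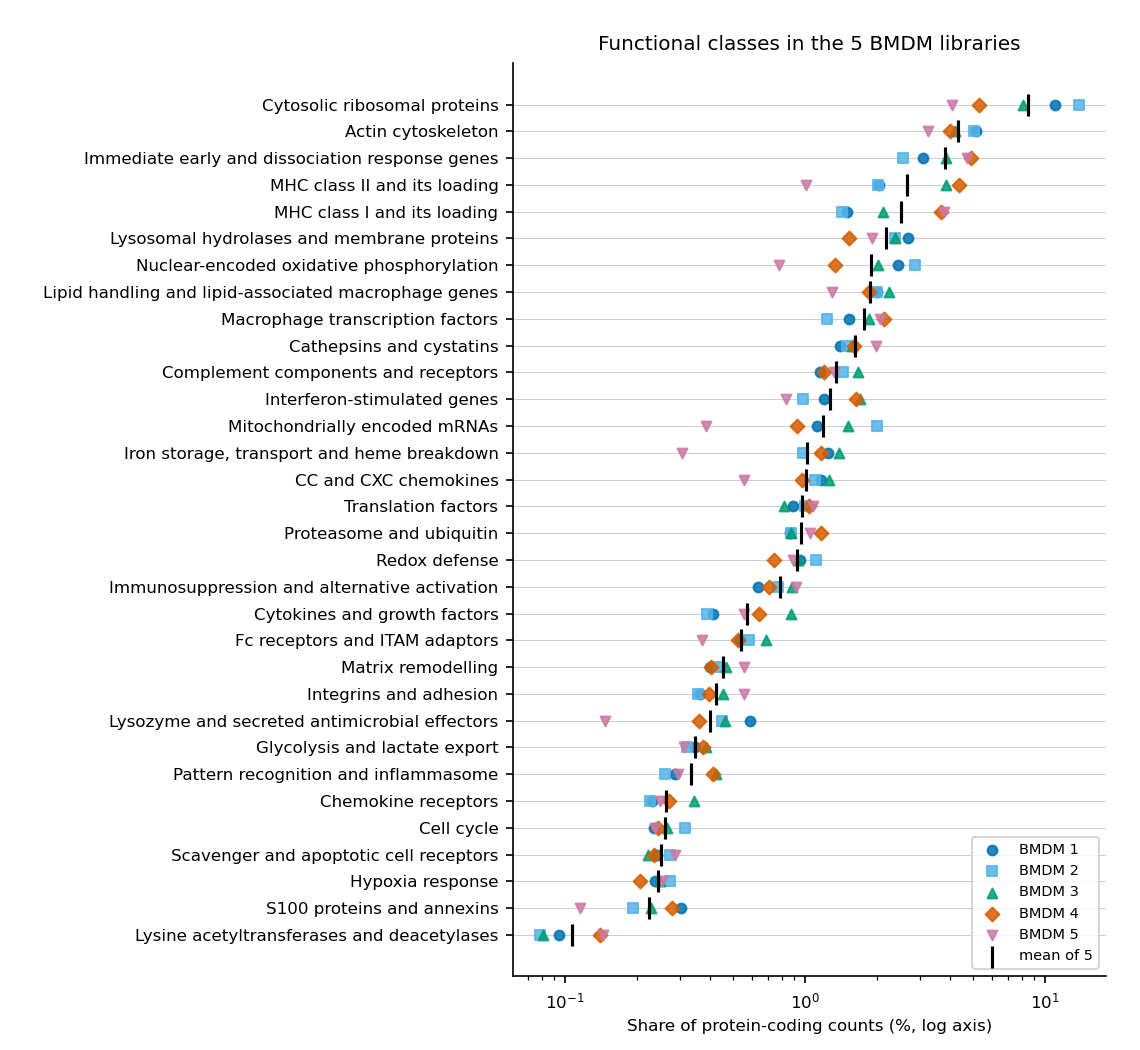
Share of protein-coding counts (%, log axis) of 32 functional classes, with a point per BMDM library and a black bar for the mean. Classes share members, so shares do not add up. Ribosomal, mitochondrial and iron classes run over a wide range with BMDM 5 lowest, whereas glycolysis, hypoxia and translation factors lie within narrow ranges.

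Matrix remodelling held 0.454% ± 0.0625, led by Tgfbi (1316 ± 225 CPM), which is also in the immunosuppression list. Next came Mmp14, a membrane collagenase, at 715, 754, 751, 613 and 1237 CPM, and Timp2, its partner, at 344, 436, 381, 386 and 378 CPM. Integrins and adhesion held 0.427% ± 0.0814, where Itgam was at 219.9, 303, 296, 271 and 1341 CPM and Sirpa, the receptor for the signal CD47, at 458 ± 73.98 CPM. Redox defense held 0.925% ± 0.131, with Gpx1 (996 ± 376 CPM) and Mt1 (993 ± 782 CPM) at its head and Prdx1 steadiest (438 ± 49.8 CPM). S100 proteins and annexins held 0.224% ± 0.0748, and cell cycle genes 0.2598% ± 0.0344, led by Ccnd1 (464 ± 205 CPM). Lysozyme and secreted antimicrobial effectors held 0.588, 0.449, 0.464, 0.3601 and 0.146%, and Lyz2 had the highest mean of the list. In BMDM 5 Lyz2 was at 352 CPM and Fn1, the fibronectin gene also in this list, at 372 CPM. Wfdc17, a small secreted protein, was at 554, 1371, 321, 109.9 and 17.00 CPM. Plk1, a mitotic kinase, was at 26.8, 58.5, 45.1, 0.24 and 51.9 CPM, with 1 count in BMDM 4.

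Over the 5 libraries, 334 of the 6071 genes at 20 CPM (5.50%) were stable and 1059 (17.4%) variable, around a median spread of 0.62 with quartiles of 0.43 and 0.87. Counting alone would give a median of 0.087 and at most 0.14, so most of the spread was beyond counting. Over BMDM 1, 2 and 3 alone, 2054 of 6066 genes (33.9%) were stable and 152 (2.51%) variable, with a median spread of 0.33. Of the genes variable over all 5, 84 were also variable over those 3, and 284 were stable in both. Fewer libraries tend to include fewer extremes, so these counts differ in part by construction.

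**Figure D3:**
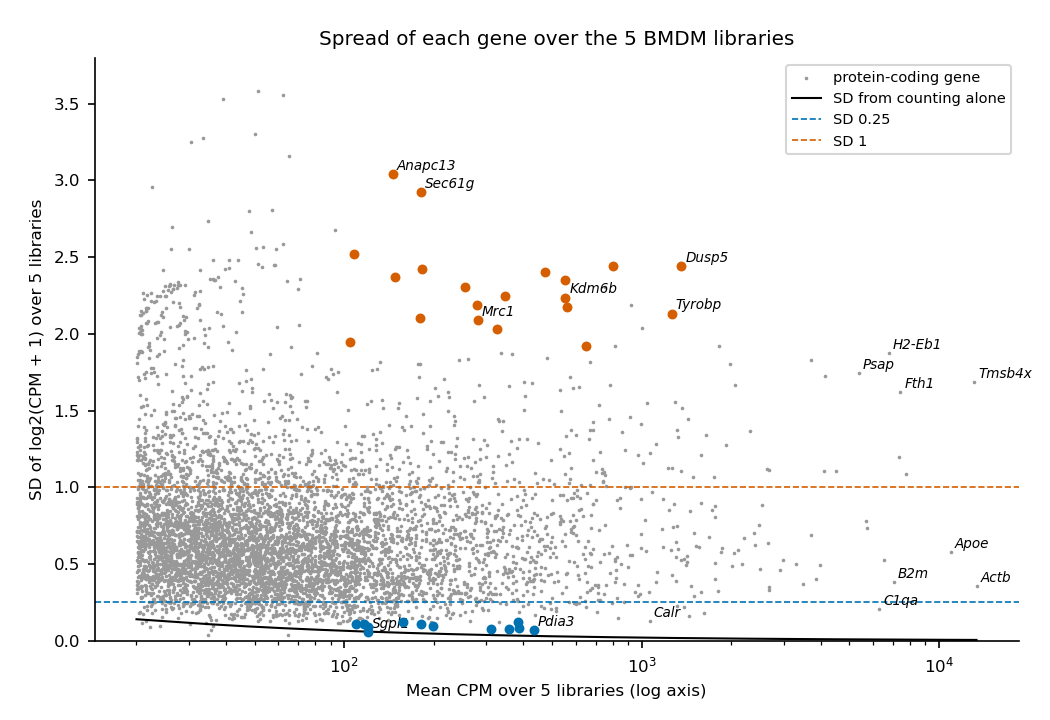
SD of log2(CPM + 1) over the 5 BMDM libraries against mean CPM (log axis) for the 6071 genes at 20 CPM or more. The black line is the SD from counting alone, dashed lines mark 0.25 and 1, blue points are the 12 stable genes and orange points the 20 variable genes named by rule, and the cloud lies well above the counting line at all levels.

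The steadiest genes at 100 CPM or more spanned several cell functions. Sgpl1, which degrades the lipid signal sphingosine 1-phosphate, was at 112, 120.04, 122, 121 and 124 CPM, a spread of 0.06. Pdia3, a disulfide isomerase of class I loading, was at 457, 449, 415, 438 and 410.3 CPM, a spread of 0.07. Ddx21, an RNA helicase of the nucleolus, had 385, 354, 347, 338 and 371 CPM, and Atp5a1, the alpha subunit of ATP synthase, 406, 409.6, 374, 358 and 389.8 CPM. Srsf2, a splicing factor, was at 311 ± 17.4 CPM and Il6ra, the interleukin 6 receptor, at 116 ± 8.69. Ubl3 (a ubiquitin-like protein), Stk38 (a kinase), G3bp2 (a stress granule protein), Suco, Emc6 (of the membrane protein insertase) and Timp2 (a metalloproteinase inhibitor) completed the 12, with spreads from 0.09 to 0.12. Among named transcripts above 1000 CPM, Calr, Mcl1, C1qa, Tgfbi, Rgs2 and Rrbp1 stayed within a spread of 0.25, the last 2 of them outside the naming rule.

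Variable genes, like most genes, usually had an extreme in BMDM 4 or BMDM 5. Of the 1059, 450 were lowest in BMDM 5 and 281 in BMDM 4, and 330 were highest in BMDM 5 and 191 in BMDM 4. In 1041 (98.3%) the highest or lowest library was 1 of these, beside 92.01% of all genes at 20 CPM. Among genes at 100 CPM or more, Anapc13, a subunit of the ubiquitin ligase of mitosis, had the largest spread (3.04), with 239, 266, 135, 88.9 and 0.66 CPM. Some genes between 20 and 100 CPM exceeded it, among them mt-Atp6 (3.58) and Ccl24 (3.16). Sec61g, part of the channel through which proteins enter the endoplasmic reticulum, was at 256, 343, 219.9, 83.8 and 1.55 CPM. Also lowest in BMDM 5 were Mrpl54, Usmg5, Esyt1, Wfdc17, P2ry13, Bcl2a1b, Cox7b, Atp5mpl, Tyrobp, Pla2g16 and Tmem258. Usmg5, a small subunit of ATP synthase, showed 1098, 1552, 1061, 257 and 25.2 CPM, and P2ry13, an ADP receptor, 212, 219, 189, 117 and 3.75 CPM. Kdm6b, a histone demethylase, moved the opposite way at 53.6, 74.98, 109, 1515 and 1017 CPM, as did Dusp5 and Atp2b4, a calcium pump (35.4, 10.7, 21.97, 299.7 and 155 CPM). Mt2, a metal-binding protein, was at 742, 1524, 388, 32.04 and 127 CPM. Fabp5, Mrc1 and Ccl8 were the remaining members of the 20.

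At the median, short transcripts were lower in BMDM 5. For each gene the log2 level in a library was compared with the mean of the other 4 libraries. Among 90 genes whose annotated transcript was under 600 nt, the median difference was 0.76, 1.07, 0.40, -0.22 and -1.60. For 326 genes of at least 600 but under 1000 nt it was 0.40, 0.63, 0.26, -0.16 and -0.93. For 1814 genes of 4500 nt or more it was -0.02, -0.31, -0.17, 0.08 and 0.55. In the shortest bin 52.2% of genes were variable, against 12.6% in the longest. The median transcript measured 886.5 nt in the ribosomal protein class and 863 nt among nuclear oxidative phosphorylation genes, and Tmsb4x (768 nt) and Tyrobp (564 nt), both lowest in BMDM 5, were also short. Single short genes went the other way, with Fau (736 nt) and Aif1 (875 nt) highest in BMDM 5 and Rplp1 (499 nt) second highest there, at 4728 CPM. With annotated transcripts of at least 1500 nt alone, a setting added after the data had been seen, 752 of 5129 genes (14.7%) were variable and 290 (5.65%) stable. Length is that of an annotated transcript chosen per gene, which need not be the form expressed. Usmg5 (2733 nt) and Sec61g (1862 nt), both lowest in BMDM 5, thus stayed in. Psap and H2-Eb1, which exceed 1500 nt, were also lowest in BMDM 5. What sets the difference between libraries was not tested.

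**Figure D4:**
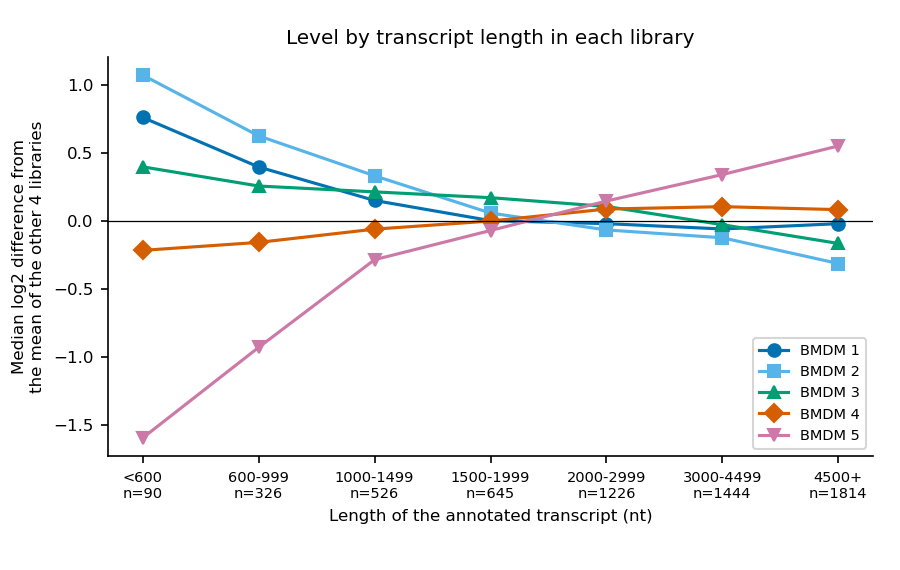
Median log2 difference of a library from the mean of the other 4, by bin of annotated transcript length (nt), with the number of genes under each bin. BMDM 5 rises from -1.60 in the shortest bin to 0.55 in the longest, and BMDM 1, 2 and 3 are highest in the shortest bin.

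Within BMDM 1, 2 and 3, where libraries were most alike, 152 genes were variable, and the 20 with the largest spread at 100 CPM or more are described here. This list was added after the data had been seen. Ccl8, a monocyte-attracting chemokine, was at 489, 2346, 133, 76.6 and 209 CPM. Mrc1, the mannose receptor CD206, was at 241, 537, 41.8, 24.1 and 560.2 CPM, and Mmp13, a collagenase, at 79.1, 231, 16.6, 13.01 and 93.8 CPM. These 3 were highest in BMDM 2 among the first 3 libraries and lowest in BMDM 3, as were Igf1, a growth factor (57.01, 248, 22.1, 13.97 and 35.1 CPM), Vcam1, an adhesion molecule (244, 490.3, 58.4, 27.5 and 188 CPM), Arg1 and Ccl6 (1219.9, 2042, 378, 456 and 193 CPM). Ly6i, of the Ly6 surface protein family, was at 308, 37.01, 365, 466 and 35.99 CPM, Ccl5, a T cell-attracting chemokine, at 658, 157, 843, 925 and 74.2 CPM, and Ly6c2 as given above. In these genes BMDM 2 was the lowest of the first 3 libraries, and BMDM 5 was also low. A further 4 genes had their highest level of the 3 in BMDM 3: Tnf, an inflammatory cytokine, at 74.4, 48.3, 221, 216 and 134 CPM, Ptgs2, the inducible cyclooxygenase, at 95.8, 62.3, 307, 355 and 534 CPM, Il1rn at 342, 238, 1185, 838 and 435 CPM and Tlr2 at 293, 109.9, 643, 366 and 69.1 CPM. Dusp2, a phosphatase of MAP kinases, peaked there too, at 313, 184, 1437, 611 and 339 CPM, whereas Klf2, a factor that quiets myeloid cells, was lowest there, at 655, 461, 101, 356 and 622 CPM. Pf4, which marks border-associated macrophages and platelets, was at 980.4, 612, 216, 127 and 81.5 CPM, highest in BMDM 1. The rest of the 20 were Fabp5, Traf1, an adaptor of TNF receptors, and Tubb2b, a tubulin.

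**Figure D5:**
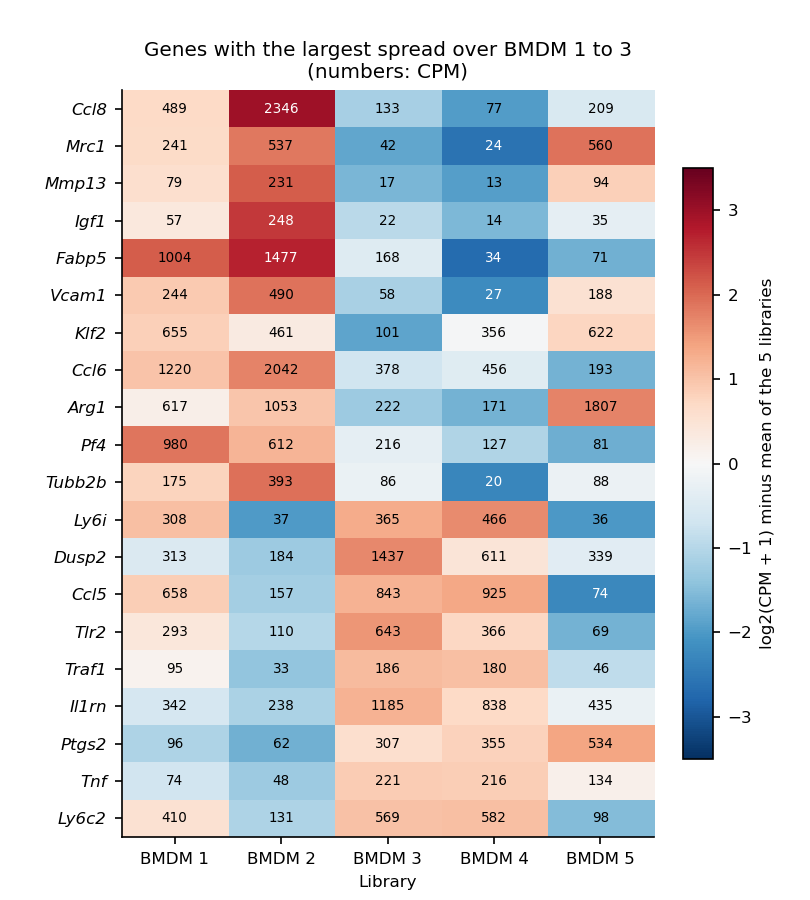
The 20 genes with the largest spread over BMDM 1, 2 and 3, with CPM printed in each cell and color for log2(CPM + 1) minus the mean of the 5 libraries. The upper genes are higher in BMDM 2 than in BMDM 3 and the lower genes the reverse, and Mrc1 and Arg1 are also high in BMDM 5.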

How the data were processed

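The authors deposited 1 table of raw counts per gene, and the submitters' processing notes list the mm10 build and, in no stated role and with no versions, STAR, featureCounts, cutadapt, FastQC and DESeq2. Strand and multimapping settings are not given in the sources used here. Per the labels' protocols, RNA was isolated with a Zymo Quick-RNA kit, made into Lexogen QuantSeq 3′ FWD libraries and read on a NextSeq500. Lists of 5 values follow the numbers in the sample titles. All 55450 gene identifiers (100%) were found in GENCODE M21 (GRCm38), which gave positions and transcript lengths, and promoter sequences came from RefSeq (GRCm38.p6). No sample column of the table was left unassigned.

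CPM was computed in Python 3.11.15 (pandas 2.3.3, numpy 2.4.6) on library totals less 3 genes, Gm42418, mt-Rnr1 and mt-Rnr2. The pseudocount for log2 was 1 CPM. Where 27 repeated symbols occurred, the entry with the highest mean was named. Alternatives used TMM factors (edgeR 4.0.16 in R 4.3.3) and other totals, filters, pseudocounts and libraries.

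The genes named were the 30 with the highest mean, the top 3 and the steadiest and least steady of each of 32 class lists, the 12 steadiest and 20 least steady at 100 CPM or more, the sort and monocyte-derived markers, and the top 3 of each other of 19 marker lists. Ribosomal protein, mitochondrial and unnamed genes were left out of the 30 and of the 12 and 20. Members and lists were chosen with earlier results of these data known, and other genes given were chosen after their values were seen. The spread calculation was tested on simulated data with spreads far from both cut-offs, so calls near the cut-offs were not tested. No pair of libraries agreed within sampling noise (lowest chi-square per degree of freedom 20.5, BMDM 1 and 2). Microglia were not analysed here, and a few genes that the rule names are not reported here.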

Additional observations from a re-analysis of the deposited data

Results flagged for a closer look

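Of 289 sets of 5 values examined (gene levels, class shares and marker sums), 23 (7.96%) held a library whose gap to its nearest neighbour was large against the whole range by Dixon's 95% criterion. Chance gives about 1 in 20 for independent sets, but these sets include genes named for a large spread and genes that move together, so that rate does not apply to them and the number is a description. Of the 23, 12 were set by BMDM 5.

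BMDM 5 was the highest library for Itgam (1341 CPM), Hsp90ab1 (4117 CPM), Mmp14 (1237 CPM), Fn1 (372 CPM), Bhlhe40 (376 CPM), Ppbp (23.2 CPM), Col3a1 (25.8 CPM), Hba-a1 (115 CPM), Hba-a2 (101 CPM) and the sum of erythroid markers (258 CPM). It was the lowest for Tyrobp (56.5 CPM) and Ubb (320.0 CPM).

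BMDM 3 was the highest for Il1b (4570.2 CPM), Tgfbi (1714 CPM) and Cx3cr1 (1380.4 CPM). BMDM 2 was the highest for Ccl8 (2346 CPM), Igf1 (248 CPM), Ccl24 (218 CPM) and mt-Atp6 (256 CPM). BMDM 1 was the highest for Gzma (204 CPM) and Col1a2 (25.5 CPM). BMDM 4 was the highest for Cpa3 (13.01 CPM) and the lowest for Eef2 (695 CPM).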

How the results depend on the processing

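The counts of stable and variable genes depended on the libraries and thresholds. Stable genes numbered 334 over 5 libraries, 379 (without BMDM 1) to 926 (without BMDM 5) when 1 library was left out (633 without BMDM 4), 2054 over BMDM 1, 2 and 3 alone and 124 among genes at 100 CPM or more. Variable genes numbered 1059, then 539 (without BMDM 5) to 1336 (without BMDM 3), 152 over BMDM 1, 2 and 3 alone, 396 by coefficient of variation, 297 at 100 CPM or more and 3330 at 5 CPM or more. With ribosomal protein and mitochondrial genes left out of the total, glycolysis took 0.387% and hypoxia genes 0.271%. Of 347 values of class and top shares under the alternatives, these 2 moved by more than 1 SD, from a smaller total. The other settings could not move a share that far. A share is a ratio within a library, so TMM factors, the total of all counts and the protein-coding total cancel. Leaving libraries out shifts a mean by less than 1 SD of the same values. Means of 66 of 234 named genes moved by more than 1 SD with all counts in the total, 5 with the protein-coding total and 0 with TMM factors. Medians, and means with libraries left out, cannot lie 1 SD of the same 5 values from their mean. Those settings therefore say nothing on how far the gene means depend on single libraries. No paired analysis was possible because each result is a description of 1 group and comes from no test.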
